A study of Drosophila melanogaster with 4 samples.

Results

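Odorant-binding proteins are small secreted proteins that hold odorants, fatty acids and other oily molecules in a hydrophobic pocket and carry them through fluid. They are best known from the sensory hairs of insects, where they bathe the dendrites of olfactory and taste neurons, but many members of the family are made elsewhere, in glia, fat body, gut or reproductive glands. Each fly gene is named for its place on the polytene chromosome map, so that neighbours such as Obp56a and Obp56b share a number. The members were all genes whose fly symbol is Obp followed by a number, found through the NCBI gene numbers of the deposited tables. A RefSeq gene table holds 51 such genes, and 42 of them were listed in at least 1 library, of 13997 genes listed in all. The gene lush, an odorant-binding protein required for the response to a male pheromone, has a symbol outside this rule. It was listed at 0.19 FPKM in control replicate 1 and 0.10 FPKM in reprogrammed replicate 1 and was not listed in the other 2 libraries.

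The libraries came from central nervous systems of Drosophila melanogaster larvae, dissected 96 hours after egg laying and pooled, 70 to 100 per sample. The genotype of the 2 control samples is repo-Gal4>mRFP, in which the glial driver repo-Gal4 expresses a red fluorescent protein. In the 2 reprogrammed samples repo-Gal4 drives constitutively activated Egfr, the epidermal growth factor receptor, together with constitutively activated PI3K92E, a phosphoinositide 3-kinase. All 4 samples carry the same driver, and the reprogrammed samples carry both activated proteins at once, so the contribution of each cannot be told apart. The samples are pools of whole nervous systems, in which fewer cells of a type and less RNA per cell cannot be told apart either. Levels are given in FPKM, fragments scaled to transcript length and to library size, and a gene not listed in a table was set to 0.

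Both driven genes were higher in the reprogrammed libraries, with Egfr at 8.60 and 11.4 against 58.9 and 49.3 FPKM and Pi3K92E at 8.28 and 17.1 against 287 and 253 FPKM. Each library listed 12192 to 12620 genes. A level of 1 FPKM was worth 11.3 to 12.4 reads per kilobase of transcript, after 60 bases were taken off its length. Marker lists of the tissue's own cells and of others were listed in every library, and their summed FPKM differed. In the order control replicates 1 and 2, then reprogrammed replicates 1 and 2, the 10 neuron markers summed to 662, 562, 116 and 168 FPKM, and all 10 were called lower (median change −1.82). The 12 glia markers summed to 824, 1118, 3475 and 3215 FPKM, and 7 were called higher and 0 lower. Trachea and cuticle markers summed to 289, 447, 91.0 and 107 FPKM, with 4 of 9 tested called lower, and imaginal disc markers to 131, 120.3, 31.3 and 48.6 FPKM, with 3 of 10 called lower. Fat body markers summed to 252, 1453, 79.6 and 524 FPKM, with Yp1 at 0 in all of them and 1 of 8 tested called lower, and muscle markers to 92.2, 490.0, 42.4 and 140.3 FPKM. Salivary gland markers summed to 1020.4, 230, 5.32 and 17.0 FPKM in the same order, gut markers to 64.4, 21.4, 134 and 2.02 FPKM, blood cell markers to 786, 412, 402 and 603 FPKM, and ring gland markers to 1141, 603, 529 and 479 FPKM. The part of these markers in the members' levels was not tested. Whether genes on the lists for other tissues, such as the imaginal disc list, are also expressed in the nervous system was not checked. Control libraries were less alike than reprogrammed ones, and 27.1% of all tested genes differed more than 2-fold between the former against 7.90% between the latter. Both shares were counted on FPKM as deposited. Scaling the libraries to a common median of the tested genes raised control replicate 1 and lowered control replicate 2, while it raised both reprogrammed libraries. The part of such offsets in these shares was not tested.

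Many members were unlisted or under 1 FPKM, and a few genes carried nearly all of the family's transcripts. Of the 51 genes, 24 were listed in every library and 9 in none. In all, 25 genes reached 1 FPKM in at least 1 library, 17 were listed but stayed under 1 FPKM everywhere, and 5 reached 100 FPKM. The number at 1 FPKM or more was 18 and 20 in the controls and 21 and 19 in the reprogrammed libraries. The 9 genes listed in no library were Obp19a, Obp19b, Obp50a, Obp56f, Obp57a, Obp57c, Obp59a, Obp83b and Obp85a. Among them, Obp59a is known for humidity sensing in the antenna and Obp83b, also called OS-E, for the fluid of antennal hairs. A count of 0 allows up to 3 reads, which for these 9 transcripts corresponds to at most 0.567 FPKM and covers counting error only.

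**Figure D1:**
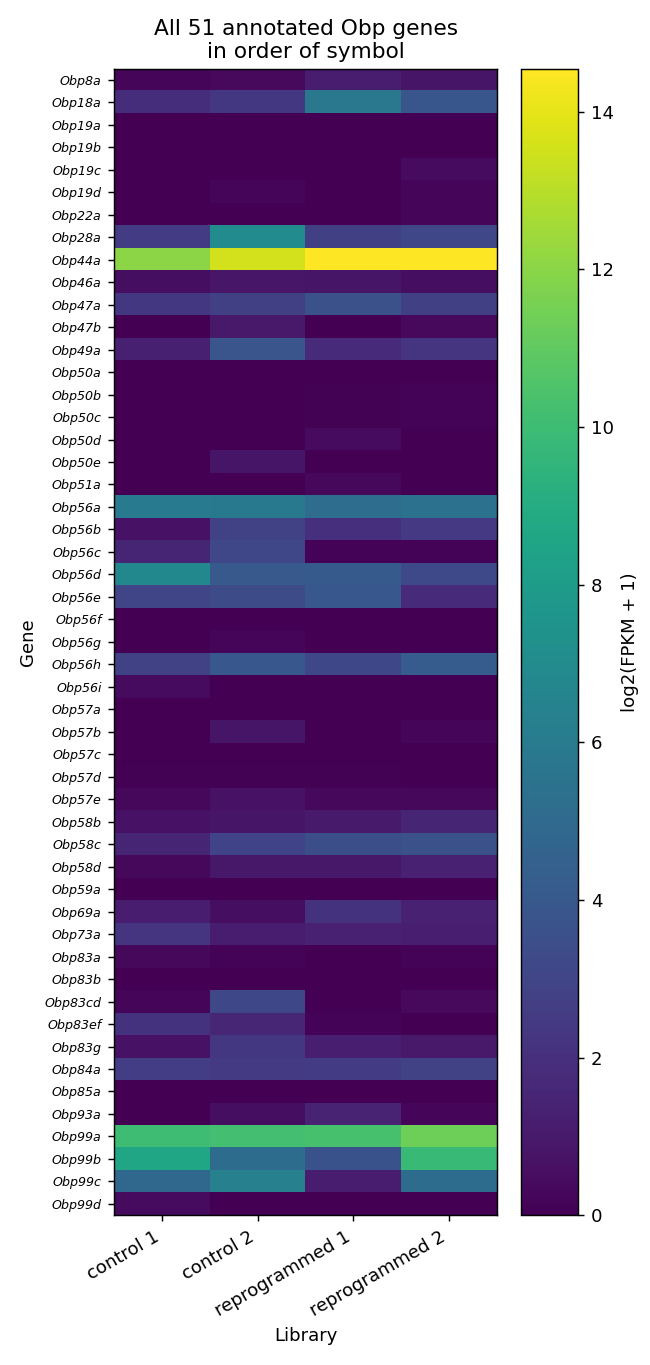
Level of all 51 annotated Obp genes (rows, ordered by symbol) in each of the 4 libraries (columns), as log2(FPKM + 1) on a colour scale. Obp44a and Obp99a are bright in every library, Obp99b in control replicate 1 and reprogrammed replicate 2, and the Obp19, Obp50 and Obp57 genes stay dark.

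Listed members were spread unevenly over the chromosome map. In the RefSeq gene order 28 of the genes stand in 8 runs of adjacent Obp genes with no other protein-coding gene between them. Of the run Obp56a to Obp56f, 5 of 6 genes reached 1 FPKM in some library, and its summed level was 182 and 97.7 FPKM in controls and 68.9 and 59.2 FPKM in reprogrammed samples. The 3 genes Obp83cd, Obp83ef and Obp83g all reached 1 FPKM. No gene of the runs Obp19a to Obp19d, Obp50a to Obp50d, Obp57a to Obp57c or Obp83a to Obp83b did. The 17 faintly listed genes include Obp57d and Obp57e, known for the taste response to host-plant acids, at no more than 0.65 FPKM, and Obp22a, Obp51a and Obp56g, known from the male seminal fluid, at no more than 0.25 FPKM.

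The family is also divided by the number of conserved cysteines in its proteins, which hold the fold together with disulfide bridges. The 6 Minus-C genes, which lack a pair of them, were all listed, and their summed level was 5697 and 13147 FPKM in controls and 25058 and 27546 FPKM in reprogrammed samples. The 13 Plus-C genes, with extra cysteines and longer proteins, summed to 4.6 and 24.5 FPKM in controls and 17.7 and 19.7 FPKM in reprogrammed samples. The pair of genes for proteins with a doubled domain, Obp83cd and Obp83ef, summed to 3.58 and 9.79 FPKM in controls and 0.10 and 0.30 FPKM in reprogrammed samples. The other 30 genes summed to 212 and 265 FPKM in controls and 160 and 115.4 FPKM in reprogrammed samples. Members are short: the median of the longest annotated transcripts was 643 bases over the 51 genes, against 1959 bases over all tested genes with a length. Their predicted proteins range from 117 to 259 residues, and the tested and untested members had median transcripts of 610 and 644 bases.

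Summed over the family, transcript levels were 5917 and 13446 FPKM in controls and 25236 and 27682 FPKM in reprogrammed libraries, or 0.761%, 1.91%, 2.82% and 3.10% of each library's total FPKM. Obp44a alone made up 71.5% and 88.1% of these sums in controls and 94.2% and 86.6% in reprogrammed samples. Without Obp44a the sums were 1685 and 1595 FPKM in controls and 1469 and 3712 FPKM in reprogrammed samples, so the 2 groups then overlapped. The genes other than Obp44a, Obp99a and Obp99b added 248 and 378 FPKM in controls and 180 and 171 FPKM in reprogrammed samples.

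**Figure D2:**
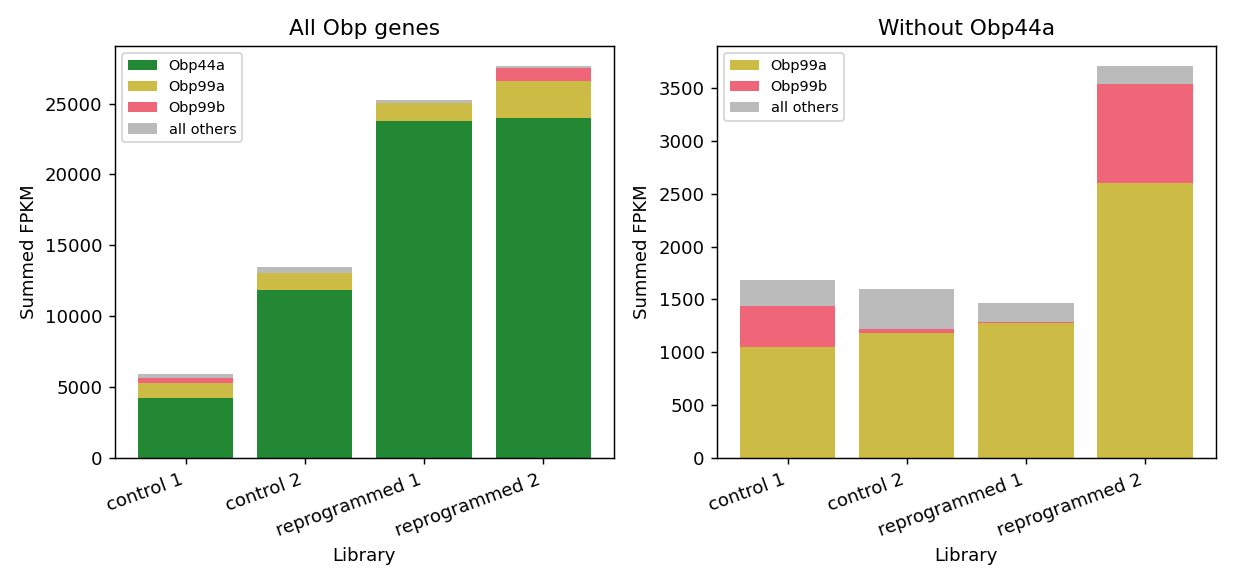
Summed FPKM of the family in each library, stacked by gene, for all members (left) and without Obp44a (right), on axes that start at 0. Obp44a fills most of each bar on the left, from 4232 FPKM in control replicate 1 to 23969.9 FPKM in reprogrammed replicate 2.

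The test compared reprogrammed with control libraries on log2(FPKM + 1) in limma over all 9851 genes that reached 1 FPKM in 2 or more libraries, and 21 members entered it. Of these, 3 reached that level in 1 group alone, Obp56c and Obp83ef through the controls and Obp58b through the reprogrammed libraries, so they entered through the group where they were higher. Changes are reprogrammed minus control, ± SE, with n = 2 per group, and p-values are Benjamini-Hochberg adjusted over all tested genes. No source says that the replicates are separate crosses, so p-values measure the spread between these pools only. Of the 21 members, 0 were called higher and 1 lower at an adjusted p under 0.05 in limma, and 4 (19.0%) had an unadjusted p under 0.05. Among all tested genes 4.11% were called higher and 8.13% lower, 12.2% in either direction, and 34.1% had an unadjusted p under 0.05. The median change was −0.09 over the 21 members and −0.25 over all tested genes. Both reprogrammed libraries stood above both controls for 7 members (33.3%) and below both for 3 (14.3%), against 22.6% and 40.8% of all tested genes. These member counts include the 3 that entered through 1 group, and nothing is read from them. The other 11 members overlapped between groups. The scaling of the libraries moved the median of all genes, to 0.06 on a common median and −0.49 on a common sum of FPKM, and that of the members to 0.24 and −0.36. It also moved the balance of calls over all genes, from 405 higher and 801 lower to 310 and 1227 on a common sum. Higher calls were the more numerous on a common median (586 against 439), after quantile normalization (369 against 249) and with the trend on transcript length removed (445 against 295).

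**Figure D3:**
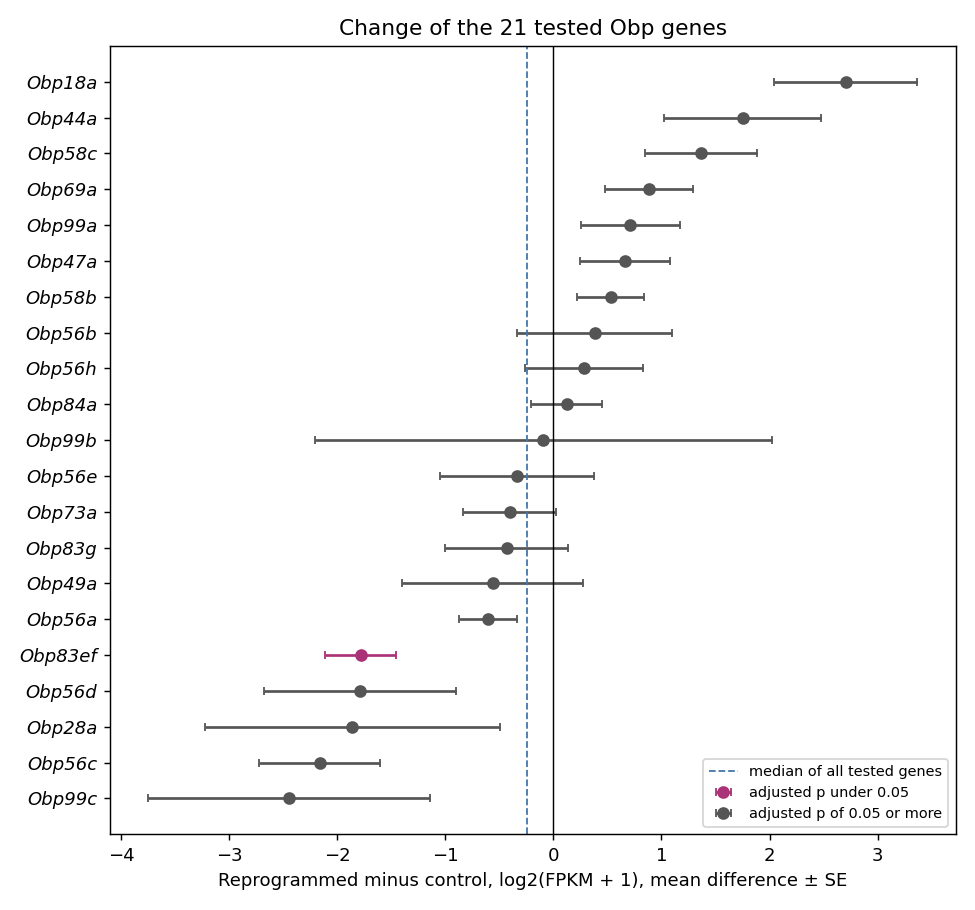
Change of each of the 21 tested members, as the mean of reprogrammed minus control libraries on log2(FPKM + 1), with bars of 1 SE from limma. The dashed line marks the median of all tested genes at −0.25. Obp83ef is the one gene with an adjusted p under 0.05, and Obp99b has the widest bar, with an SE of 2.12.

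Obp44a (NCBI gene 35789), which has been described in fly glia as a carrier of fatty acids, was the most abundant member in every library. It stood at 4232 and 11851 FPKM in controls and at 23766 and 23969.9 FPKM in reprogrammed samples. Both reprogrammed libraries were above both controls, the lower of them 2.01-fold above the higher control, and they differed from each other by a factor of 1.01. The controls differed 2.80-fold in FPKM as deposited. Obp44a ranked 23rd and 2nd of all genes in control replicates 1 and 2 and 3rd in both reprogrammed libraries. The change of 1.75 ± 0.73 did not pass the test (limma adjusted p = 0.155). Without control replicate 1 it was 1.01 and without control replicate 2 it was 2.50, both then called (limma adjusted p = 0.0381 and 0.020), in fits whose spread comes from the reprogrammed pair alone. After quantile normalization, which sets each value by its rank in the library, it was 0.88 (limma adjusted p = 0.498). By rank, control replicate 2 stands above both reprogrammed libraries, although its FPKM is lower. Glia markers were likewise higher in both reprogrammed libraries in their sum, and their part in the level of Obp44a was not tested. Of its exon bases 19.1% overlap Pabp2 on the opposite strand, which stood at 332 to 502 FPKM.

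Obp99a (NCBI gene 43488) was the second most abundant member on average. It was at 1049 and 1183 FPKM in controls and at 1277 and 2605 FPKM in reprogrammed samples. The groups did not overlap, but the reprogrammed libraries differed 2.04-fold from each other and the change of 0.71 ± 0.46 did not pass (limma adjusted p = 0.329). It was 1.22 without reprogrammed replicate 1 and 0.20 without reprogrammed replicate 2. In FPKM, Obp44a exceeded it by 4.03-fold to 18.6-fold over the 4 libraries.

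Obp99b (NCBI gene 43497), known from the fat body of adult males, had the largest fold difference between the reprogrammed libraries of the tested members listed in both. It stood at 388 and 34.0 FPKM in controls and at 11.8 and 936 FPKM in reprogrammed samples. Control replicate 1 and reprogrammed replicate 2 were high and the other 2 libraries low, an 11.4-fold difference within controls and a 79.3-fold one within reprogrammed samples. At this depth the values correspond to about 2395, 222, 70.1 and 5686 reads, so counting error is small beside these differences. The group difference was −0.09 ± 2.12 (limma adjusted p = 0.979). Without reprogrammed replicate 1 it was 3.0 and without reprogrammed replicate 2 it was −3.19, so a single library sets its direction. It was 1.64 without control replicate 1 and −1.83 without control replicate 2.

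Obp99c (NCBI gene 43494) was also uneven, at 27.7 and 79.2 FPKM in controls and at 1.17 and 34.9 FPKM in reprogrammed samples. Reprogrammed replicate 1 alone was low, 29.8-fold below its partner, and the groups overlapped. The change was −2.44 ± 1.30 (limma adjusted p = 0.247), −4.47 without reprogrammed replicate 2 and −0.42 without reprogrammed replicate 1. Obp99d, the last gene of this map position, was listed at 0.37 FPKM in control replicate 1 and nowhere else.

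**Figure D4:**
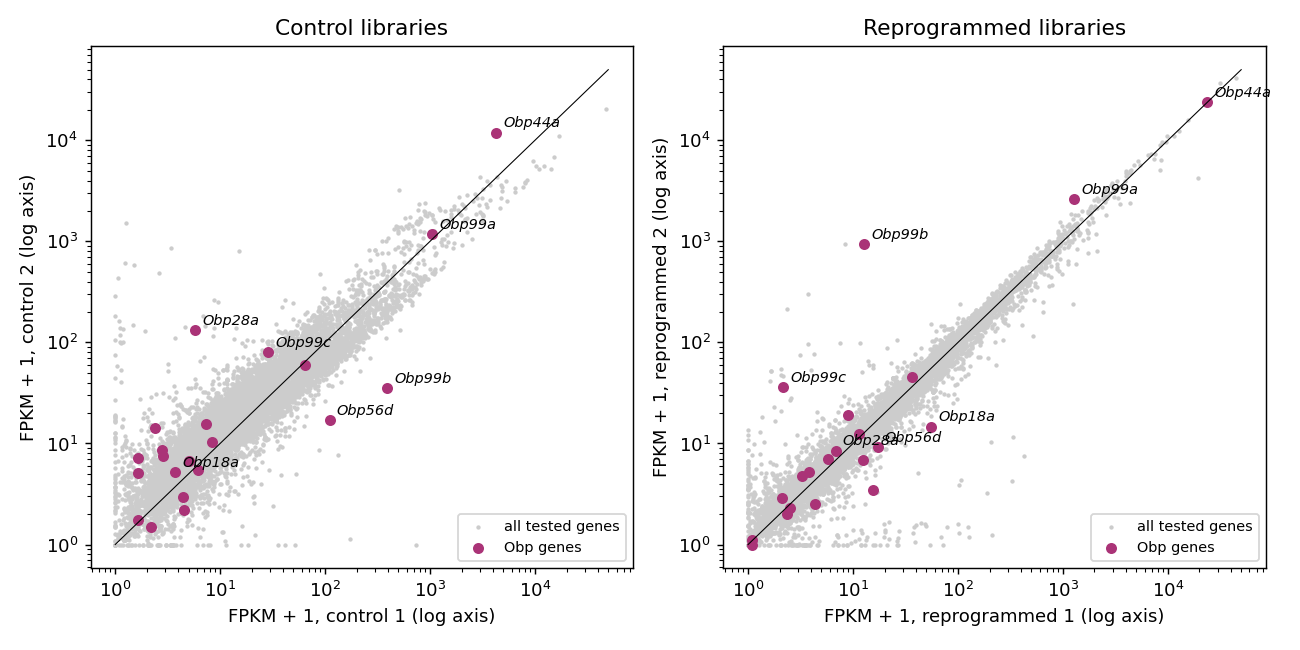
FPKM + 1 of every tested gene in one library against its partner, on log axes, for controls (left) and reprogrammed libraries (right), with the line of equality. Members are dark and all tested genes grey. Obp99b lies far from the line in both panels, Obp28a and Obp56d in the control panel, and Obp99c in the reprogrammed panel.

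Differences between partner libraries were common in the family. Of the 21 tested members, 13 (61.9%) differed more than 2-fold between the controls and 8 (38.1%) between the reprogrammed libraries, against 27.1% and 7.90% of all tested genes. The comparison used FPKM as deposited and was not matched for level or transcript length. Some counted members rest on few reads. Obp69a had about 6.7 and 2.9 reads in controls, and Obp83ef about 1.0 and 0 in reprogrammed samples. Obp28a (NCBI gene 34031), abundant in the antenna and in larval sense organs, read 4.79 and 130 FPKM in controls and 5.81 and 7.47 FPKM in reprogrammed samples. Control replicate 2 alone was high, 27.2-fold above its partner, and the change was −1.86 ± 1.37 (limma adjusted p = 0.389). It was −4.11 without control replicate 1 (0.0197 in limma) and 0.39 without control replicate 2 (0.295). The summed fat body, muscle, and trachea and cuticle markers were also highest in control replicate 2. Each of these lists also held genes that were higher in control replicate 1, among them Fbp1, sls and obst-A. The part of these markers in Obp28a was not tested. Obp49a, a protein of taste hairs through which bitter compounds suppress sweet taste, also peaked there, at 1.39 and 13.2 FPKM in controls and 2.28 and 3.76 FPKM in reprogrammed samples (−0.56 ± 0.84, limma adjusted p = 0.678). It was −1.85 without control replicate 1 (0.0222 in limma) and 0.73 without control replicate 2 (0.175).

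Obp83ef was the one member called. It encodes a protein with a doubled domain and read 3.38 and 1.97 FPKM in controls and 0.10 FPKM and no listing in reprogrammed samples. Both reprogrammed libraries were below both controls, with a change of −1.78 ± 0.33 (limma adjusted p = 0.0380). It met the 1 FPKM filter through the controls alone, so the call is on a gene admitted by the group where it was high. Summed neuron, trachea and cuticle, imaginal disc, salivary gland and ring gland markers were also lower in both reprogrammed libraries. Their part in Obp83ef and in Obp56c was not tested. The values stand for about 54 reads over the controls and 1 over the reprogrammed libraries, a ratio of 51.1 at equal depth with an exact 95% interval from 8.8 to 2054 that covers counting error only. The call was lost under quantile normalization (limma adjusted p = 0.0645), with libraries scaled to a common median (0.0514) and with no filter on low values (0.0843). It was kept on a common sum (0.0313 in limma), with the trend on transcript length removed (0.0405) and with a pseudocount of 0.1 (0.0386). The call was also lost without either reprogrammed replicate and kept without either control replicate, with changes from −2.06 to −1.50. Its neighbour Obp83cd, which overlaps 10.2% of its exon bases on the opposite strand, was not tested because it passed 1 FPKM only once. Obp83cd read 0.20 and 7.82 FPKM in controls, and was unlisted and at 0.30 FPKM in reprogrammed samples. Obp83g, the third gene of that run, read 0.65 and 4.12 FPKM in controls and 1.34 and 0.99 FPKM in reprogrammed samples, where it overlapped the controls (limma adjusted p = 0.637). It was −1.25 without control replicate 1, and then called (0.0307 in limma), and 0.39 without control replicate 2 (0.360).

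In the Obp56 run, Obp56c read 1.80 and 7.63 FPKM in controls and 0.10 FPKM in each reprogrammed library. These are about 105 reads against 2, a ratio of 49.7 at equal depth with an exact 95% interval from 13.4 to 415 for counting error. Both reprogrammed libraries were below both controls, and the change of −2.16 ± 0.56 did not pass the test (limma adjusted p = 0.0587). It too met the 1 FPKM filter through the controls alone, the group where it was high. With a pseudocount of 0.1 the change was −4.26 and passed (limma adjusted p = 0.0416). It did not pass on a common median (0.0548 in limma), on a common sum (0.0556) or after quantile normalization (0.0630). Nor did it pass with no filter on low values (0.125 in limma). With 1 library left out the change ranged from −2.97 to −1.35.

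Obp56a was the steadiest of the run, at 62.8 and 58.5 FPKM in controls and 35.4 and 44.2 FPKM in reprogrammed samples. The groups did not overlap, and the change of −0.60 ± 0.27 did not pass (limma adjusted p = 0.180). Obp56d, made in smell and taste organs of larva and adult, read 110 and 16.0 FPKM in controls and 16.1 and 8.20 FPKM in reprogrammed samples. Control replicate 1 alone was high, and the change was −1.79 ± 0.89 (limma adjusted p = 0.217). It was −3.14 without control replicate 2 (0.0211 in limma) and −0.44 without control replicate 1 (0.437). Neuron, salivary gland, ring gland, blood cell and imaginal disc markers also had their highest sums in that library. He alone read 671 of the 786 FPKM of blood cell markers there. Each of these lists also held genes that were higher in control replicate 2, among them nSyb, ng1, Akh, PPO1 and ato. The part of these markers in Obp56d was not tested. Obp56b read 0.64 and 6.24 FPKM in controls and 2.84 and 4.25 FPKM in reprogrammed samples, with the groups overlapping (0.38 ± 0.72, limma adjusted p = 0.746), but 1.45 and called without control replicate 2 (0.0394 in limma) and −0.69 without control replicate 1 (0.127).

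Obp56e read 7.29 and 9.35 FPKM in controls and 14.4 and 2.49 FPKM in reprogrammed samples, so the reprogrammed libraries lay on either side of the controls. Of its exon bases 84.4% overlap the antisense gene asRNA:CR44509, which read 3.95, 4.07, 7.21 and 1.34 FPKM in the same order. The library protocol names no step that keeps strand and no strand setting is given, so reads of the 2 genes may be mixed. Obp56h, whose knockdown in males is known to alter mating and cuticular hydrocarbons, read 6.38 and 14.7 FPKM in controls and 7.99 and 18.1 FPKM in reprogrammed samples. The partners differed 2.31-fold in controls and 2.27-fold in reprogrammed samples, and the change of 0.28 ± 0.54 did not pass (limma adjusted p = 0.752).

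Obp18a (NCBI gene 32897) had the largest positive change of the tested members. It read 2.71 and 4.20 FPKM in controls and 54.8 and 13.7 FPKM in reprogrammed samples, a 9.91-fold ratio of the means. Both reprogrammed libraries were above both controls but differed 4.01-fold from each other, and the change of 2.70 ± 0.66 did not pass (limma adjusted p = 0.0531). It passed on a common median (0.0498 in limma) and with a filter of 5 FPKM (0.0424). It did not pass on a common sum (0.0598 in limma), after quantile normalization (0.0527) or with the trend on transcript length removed (0.0721). Nor did it pass with no filter on low values (0.123 in limma) or with a pseudocount of 0.1 (0.0537). The change was 3.67 without reprogrammed replicate 2 and 1.74 without reprogrammed replicate 1.

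Both reprogrammed libraries also stood above both controls for 4 low members, none of which passed the test: Obp47a, Obp58b, Obp58c and Obp69a. Obp58c read 1.84 and 6.46 FPKM in controls and 10.4 and 11.4 FPKM in reprogrammed samples, a change of 1.37 ± 0.52 (limma adjusted p = 0.129). It was 2.06 and called without control replicate 2 (0.0203 in limma) and 0.67 without control replicate 1 (0.0635). Its neighbour Obp58b read 0.66 and 0.75 FPKM in controls and 1.10 and 1.88 FPKM in reprogrammed samples (0.53 ± 0.31, limma adjusted p = 0.293). The third Plus-C gene beside them, Obp58d, was not tested, and read 0.25 and 0.94 FPKM in controls and 0.90 and 1.52 FPKM in reprogrammed samples, where the groups overlapped. Obp47a read 4.10 and 5.64 FPKM in controls and 11.4 and 5.87 FPKM in reprogrammed samples, the lower of which barely exceeded the controls (0.67 ± 0.42, limma adjusted p = 0.315). Obp69a, known for a role in social responses to a male pheromone, read 1.18 and 0.48 FPKM in controls and 3.33 and 1.54 FPKM in reprogrammed samples (0.88 ± 0.40, limma adjusted p = 0.187). These 2 levels of Obp69a in controls rest on about 6.7 and 2.9 reads.

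The remaining members at or above 1 FPKM were low and did not separate the groups, or were not tested. Obp84a read 5.19 and 4.49 FPKM in controls and 4.77 and 6.0 FPKM in reprogrammed samples, the smallest positive change of the tested members (0.12 ± 0.33, limma adjusted p = 0.820). Of its exon bases 81.2% overlap Dtwd2 on the opposite strand, which read 7.08, 5.38, 5.44 and 7.39 FPKM in the same order, and the reads of both may be mixed. Obp73a read 3.56 and 1.20 FPKM in controls and 1.49 and 1.30 FPKM in reprogrammed samples (limma adjusted p = 0.554). Obp93a read 0 and 0.44 FPKM in controls and 1.77 and 0.16 FPKM in reprogrammed samples, and 83.2% of its exon bases overlap CG5793 on the opposite strand, which read 46.6, 56.3, 213 and 195 FPKM. Obp8a read 0.15 and 0.29 FPKM in controls and 1.12 and 0.78 FPKM in reprogrammed samples, about 0.9, 1.9, 6.8 and 4.8 reads, and was not tested. In all, 14 of the 51 members share exon bases with another annotated gene. Obp50b and Obp50c share all of theirs with each other and were listed at identical values of 0.06 and 0.11 FPKM in the reprogrammed libraries, so they count as 1 measurement.

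**Figure D5:**
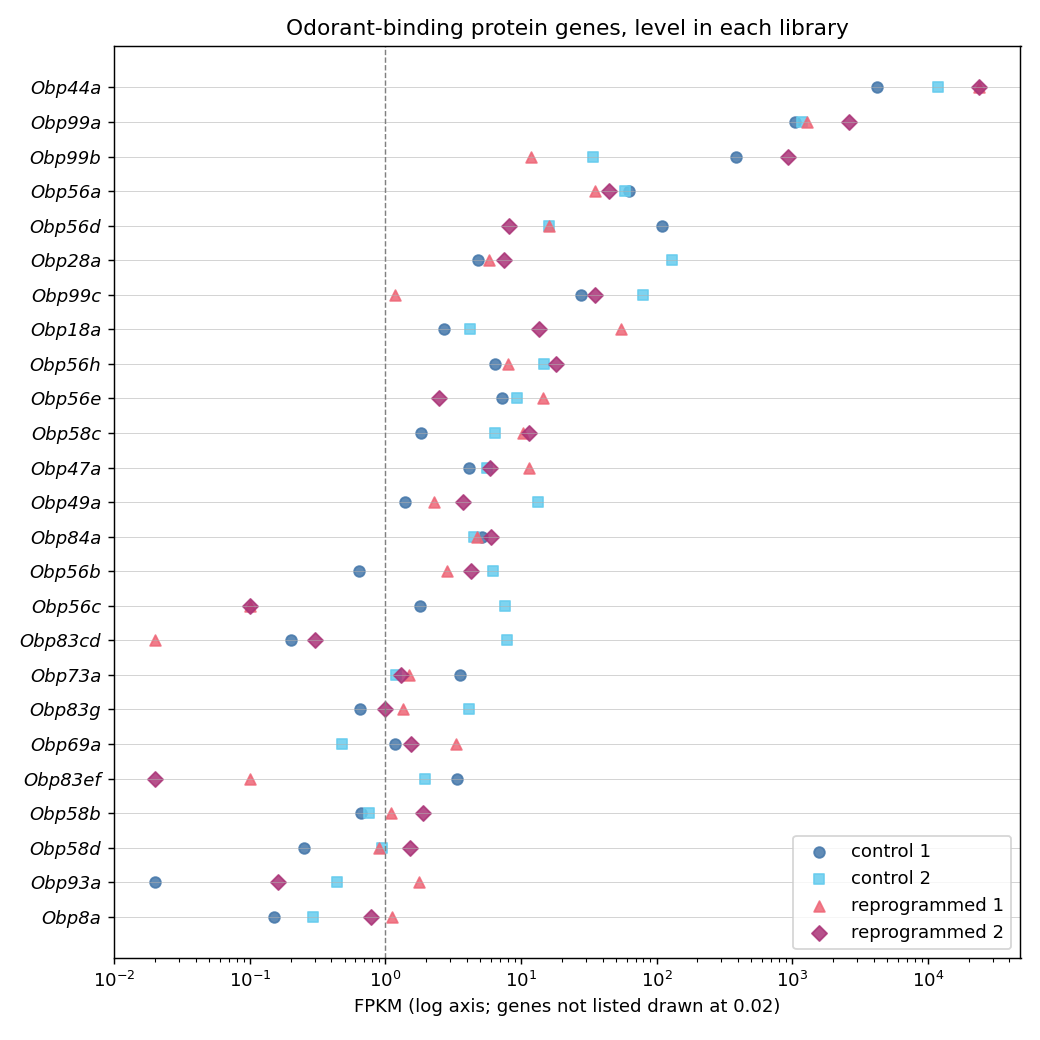
FPKM of the 25 members that reached 1 FPKM in at least 1 library, ordered by mean level, with 1 point per library on a log axis; genes not listed are drawn at 0.02 and the dashed line marks 1 FPKM. Obp44a, Obp99a and Obp99b lead, and the 4 points of Obp99b spread from 11.8 to 936 FPKM.

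Genes that work with odorant-binding proteins in sense organs were low or unlisted. Of 61 odorant receptor genes on the fixed list, 38 were listed and 2 tested, with summed levels of 13.1 and 13.4 FPKM in controls and 10.3 and 9.61 FPKM in reprogrammed samples. Or49b was called higher, from 0.15 and 0.33 to 1.89 and 1.90 FPKM (1.23 ± 0.29, limma adjusted p = 0.0489), and met the 1 FPKM filter through the reprogrammed libraries alone, the group where it was high. Or43b read 8.75 and 8.81 FPKM in controls and 5.20 and 4.70 FPKM in reprogrammed samples (limma adjusted p = 0.170). None of the 2 tested of 66 ionotropic receptor genes and none of the 2 tested of 60 gustatory receptor genes was called, and the summed levels of each list stayed between 6.17 and 12.6 FPKM. Snmp1 and Snmp2, membrane proteins of sensory neurons and their support cells, summed to no more than 0.64 FPKM in any library. Of 26 other soluble chemosensory protein genes 5 were tested and 1 was called, Phk-3, a small carrier-like protein, which fell from 48.4 and 56.5 to 8.77 and 14.1 FPKM (−2.14 ± 0.33, limma adjusted p = 0.0334). EbpIII, of the same family as Phk-3, read 6.70 and 10.3 FPKM in controls and 39.0 and 21.2 FPKM in reprogrammed samples (1.68 ± 0.41, limma adjusted p = 0.0535).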

How the data were processed

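The authors deposited 1 table of FPKM per gene and library, rounded to 2 decimals, per the file headers. HISAT and Bowtie2 are named in the submitters' processing notes; the sources used here give no version, quantifier, strand setting or genome build, and coordinates are left out. Messenger RNA was chosen with oligo(dT), per the labels' protocols. Names came from a RefSeq table (Release 6 plus ISO1 MT), which named 13962 of 13997 genes, and transcript lengths and exon overlaps from Ensembl BDGP6, which matched all 51 Obp genes. Subfamilies were assigned from general knowledge. Reads were estimated by finding the worth of 1 read that made low values of genes with 1 transcript whole (length less 60 bases); 96.0% to 96.8% came out whole within 0.15 reads, against 30.0% by chance.

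For genes that reached 1 FPKM in 2 or more of the 4 libraries, log2(FPKM + 1) was fitted with limma 3.58.1 (lmFit, eBayes with trend, group only, two-sided) in R 4.3.3, with Benjamini-Hochberg adjustment over all genes. The scale understates changes of low genes. The fit was checked on data with known answers. Named were all members at 1 FPKM or more in any library, and from the other fixed lists up to 4 called and 3 most abundant genes. The members and lists were chosen with earlier results of these data known. Python 3.11.15 and matplotlib 3.10.9 were used.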

Additional observations from a re-analysis of the deposited data

How the results depend on the processing

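The counts of called genes, 405 higher and 801 lower over all tested genes and 0 and 1 among the 21 members, moved with the processing. Over all genes, higher and lower calls were 586 and 439 with libraries brought to a common median, 310 and 1227 when brought to a common sum, 369 and 249 under quantile normalization and 445 and 295 once the trend on transcript length was removed, so the balance turned towards higher in all of these but the common sum. Without the 1 FPKM filter the limma fit gave 0 higher and 0 lower calls, members included, with 3629 genes and 5 members at an unadjusted p under 0.05. Among members, a common median and a filter of 5 FPKM each gave 1 higher and 0 lower, quantile normalization gave 0 and 0, and a pseudocount of 0.1 gave 0 and 2. With 1 library left out, higher calls ranged from 181 to 1265 over all genes and from 1 to 3 among members, and lower calls from 75 to 3313 and from 1 to 5. With the replicate number as a block, 872 genes were higher and 1907 lower, and 2 members higher and 5 lower. In that fit limma set each gene's spread to the trend over all genes, so these counts do not reflect a gene's own spread. The within-group deviations of same-numbered samples correlated at −0.03 across genes, and the numbers are not known to pair the samples. A level of 5 FPKM in 2 libraries was reached by 13 members, against 21 at 1 FPKM and 24 at 0.5 FPKM.

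The sign of some uncalled members changed. Obp99b was at 0.24 on a common median, Obp84a at −0.10 on a common sum and −0.058 with the length trend removed, and Obp56e at 0.063 after quantile normalization. With 1 library left out, the change ranged from −3.19 to 3.0 for Obp99b, −4.11 to 0.39 for Obp28a, −1.85 to 0.73 for Obp49a, −1.41 to 0.74 for Obp56e and −0.69 to 1.45 for Obp56b. It ranged from −1.25 to 0.39 for Obp83g, −0.93 to 0.12 for Obp73a, −0.26 to 0.83 for Obp56h and −0.015 to 0.26 for Obp84a. The causes were not tested. A fit with 1 library left out takes its spread from 1 pair alone and assumes that the lone library varies like it. In the fits without a reprogrammed library, limma set each gene's spread to the trend over all genes. The p-values of those fits therefore do not reflect a gene's own difference between partner libraries. With no filter, a filter of 5 FPKM or the replicate block, the change itself equals that of the main fit. Its sign could not move in those refits, which are counted below. Of 244 refitted member changes, 200 kept direction and side of the threshold, 24 kept direction and passed it newly, 5 kept direction and no longer passed it, and 15 changed sign. Of those 15, 1 also passed the threshold, Obp99b without reprogrammed replicate 1.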
